A study of Rattus norvegicus with 6 samples.

Results

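The regions described here are promoter regions of the rat genome in which a methylation array placed short and long probes side by side. Array probes less than 1000 bp apart were joined into a region, and regions on chromosomes 1 to 20 with 3 to 99 probes were kept. A region was included when between 1/3 and 2/3 of its probes, limits included, were 45 nt long, the shortest length on the array. This gave 7378 of 15284 regions (48.3%), drawn from 16123 regions on the array. The choice used probe positions and lengths and no measured value. In a further 4276 regions (28.0%) more than 2/3 of the probes were 45 nt long, and in 3630 regions (23.8%) fewer than 1/3 were. Throughout, the 45 nt probes of a region were compared with its long probes, meaning those of 55 nt or more, the longest being 60 nt.

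In methylated DNA immunoprecipitation (MeDIP), an antibody against 5-methylcytosine pulls down methylated fragments, and the immunoprecipitate (IP) is hybridised against the input DNA. The pull-down depends on how many methylated CpG sites a fragment carries, so many promoters, whose CpG islands are mostly unmethylated, yield little DNA. Probes on tiling arrays are usually shortened where the sequence is rich in G and C, to hold the melting temperature even. Whether that holds for the probes described here was not examined, since no genome of build rn4, in which their positions are given, was used.

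DNA came from the lumbar spinal cord of 6 male rats of 220 to 250 g, taken at day 14 after surgery. The sham group held 3 rats after a sham operation, and the CCI group held 3 rats after chronic constriction injury, a model of neuropathic pain made by tying ligatures loosely around a nerve. The strain was not given in the sources used here, and whole lumbar cord mixes neurons, glia and vessels, so a change in cell makeup and a change in methylation within a cell type cannot be told apart. Each array compared the IP of 1 rat (Cy5, red) with the input of the same rat (Cy3, green), and dyes were not swapped, so any dye effect is shared by all ratios. The ratio below is log2 of IP over input, and the IP and input values are log2 signals. All were set to 0 at the median probe of each array, so a negative value means below that median. Precision is limited by the 3 arrays in each group.

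The members held 71830 of the 172669 probes on the array. Of these, 37061 (51.6%) were 45 nt long, 22683 (31.6%) were 46 to 54 nt and 12086 (16.8%) were 55 nt or more, of which 6502 were 60 nt. The median member held 10 probes over 1663 bp, 5 of them 45 nt and 1 of them long. In 1546 members there was no long probe, and in 5830 members at least 1 usable probe of each kind gave a difference between 45 nt and long probes. Probes with an outlier flag on any array were left out, 289 of them in members.

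The 45 nt probes did not form a centre with long probes around it. Their median distance from the middle of the region was 465.5 bp, against 475 bp for probes of 46 to 54 nt and 493.5 bp for long probes. By mean distance, the 45 nt probes lay nearer the middle than the long ones in 3116 of 5832 members (53.4%). They stood in 1 unbroken run in 2056 members (27.9%), in 2 runs in 3160 (42.8%), in 3 runs in 1664 (22.6%) and in 4 or more runs in 498 (6.75%). In 4440 members (60.2%) a 45 nt probe stood at 1 of the ends, and in 995 at both. With each member divided into 10 equal stretches, the share of 45 nt probes was 42.2% in stretch 1, 58.0% in stretch 3, 47.3% in stretch 6, 58.2% in stretch 8 and 46.6% in stretch 10. Position therefore did not divide the probes into a core and a flank, and they are named by length only.

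**Figure D1:**
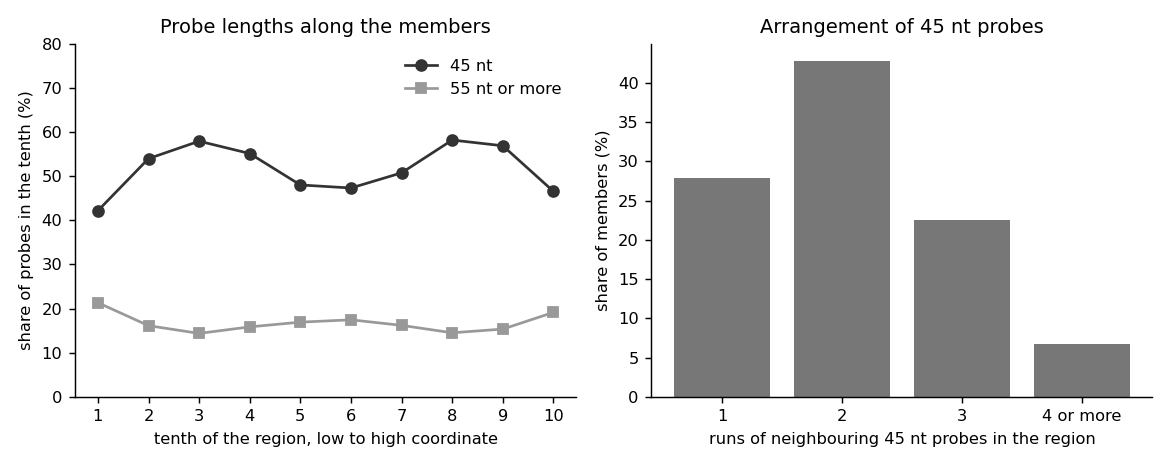
Left, the share of probes (%) that are 45 nt or 55 nt and more in each of 10 equal stretches of a member, from low to high coordinate. Right, the share of the 7378 members (%) whose 45 nt probes form 1, 2, 3 or at least 4 runs: the 45 nt share peaks at 58.0% and 58.2% on either side of the middle, and 2 runs are the commonest arrangement.

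Signal in the members followed probe length. At 45 nt the median ratio was 0.40, 0.43 and 0.45 in sham rats 1 to 3 and 0.39, 0.37 and 0.54 in CCI rats 1 to 3. At 50 nt it was -0.14 ± 0.075 (SD, n = 3) in sham and -0.20 ± 0.069 (n = 3) in CCI. At 55 nt it was -0.82 ± 0.092 in sham and -0.88 ± 0.185 in CCI. The fall with length was present on each array, and the groups overlapped at each of these 3 lengths.

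The IP channel fell most steeply. Its median was 1.33 ± 0.014 in sham and 1.36 ± 0.011 in CCI at 45 nt, -1.77 ± 0.029 and -1.82 ± 0.018 at 55 nt, and -4.16 ± 0.018 and -4.16 ± 0.091 at 60 nt. Many of the 60 nt probes carried a floor value set by the software, described below. The input, which carries no enrichment, fell as well, from 0.98 ± 0.052 and 0.96 ± 0.113 at 45 nt to -1.44 ± 0.078 and -1.61 ± 0.144 at 60 nt. The fall in the input shows that part of the length pattern was present in DNA that had not been immunoprecipitated. Levels of different probes also carry the affinity of each probe, so a difference between 45 nt and long probes describes probes and is no measure of methylation.

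**Figure D2:**
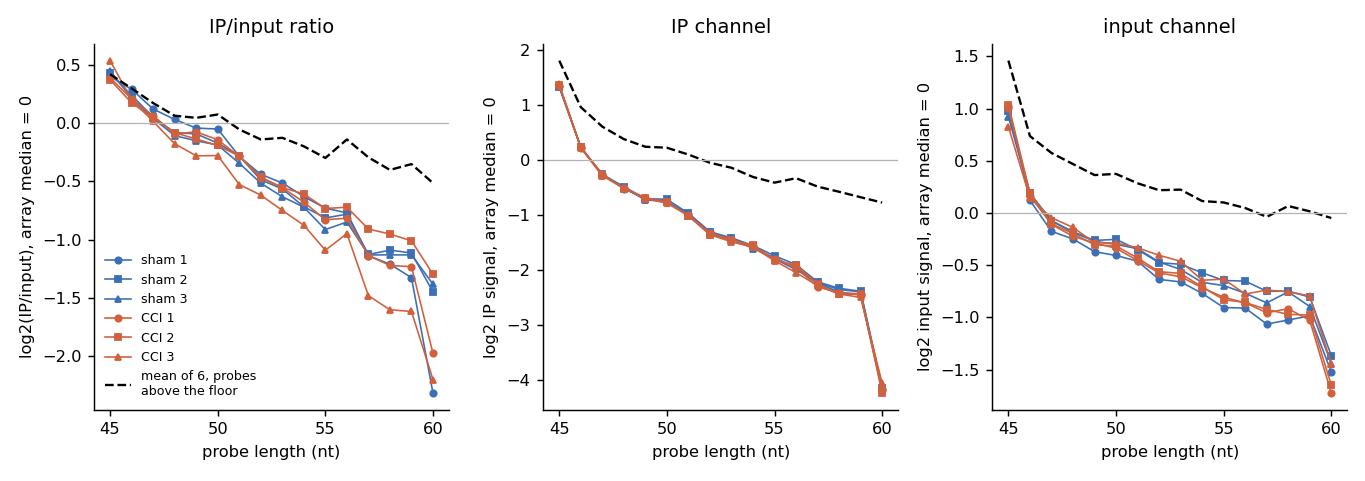
Median log2 ratio, IP signal and input signal of the probes in members at each length from 45 to 60 nt, 1 line per array, with the mean of the 6 arrays over probes above the floor in both channels as a dashed line. All 3 quantities fall with length, the IP by the most, and the dashed line is flatter than the others.

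Many long probes carried no measured signal. A probe well above background is one the scanner software flagged as such. In the IP, 91.1% to 93.2% of the 45 nt probes in members were well above background on an array, against 32.7% to 36.4% of the long ones. In the input the shares were 54.3% to 85.6% and 8.28% to 39.1%. A probe whose signal was not significantly above background carried a floor value set by the software. On sham 3 and CCI 1 this was 1 single value per channel. On the other 4 arrays it took many different values, whose spread was not measured.

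The floor covered 34.9% to 38.1% of the long probes in members in the IP, against 1.11% to 1.86% of the 45 nt probes. In the input it covered 44.6%, 15.0% and 13.4% of the long probes on sham rats 1 to 3 and 34.3%, 9.47% and 35.8% on CCI rats 1 to 3, so it differed between arrays of the same group. A probe at the floor in both channels took the median ratio -2.34, -1.38 and -1.13 on the sham arrays and -1.97, -0.91 and -2.22 on the CCI arrays. The median ratio of the 60 nt probes was -2.31, -1.45 and -1.38 on the sham arrays and -1.97, -1.30 and -2.20 on the CCI arrays. On sham 1, CCI 1 and CCI 3 the typical 60 nt probe thus sat at or close to the floor ratio. In the IP the floor covered 47.6% to 50.6% of the 60 nt probes. Their median IP, -4.24 to -4.06 over the arrays, lay near that of floor values, -4.42 to -4.16. Over probes above the floor the 60 nt IP was -0.75 ± 0.022 in sham and -0.81 ± 0.035 in CCI. At 45 nt such probes gave 1.79 ± 0.016 and 1.81 ± 0.019. A ratio with the IP at the floor is an upper bound, one with the input at the floor is a lower bound, and one with both at the floor has no order.

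Within members, the 45 nt probes read higher than the long ones on all 6 arrays. With all probes, the median difference in ratio over 5830 members was 1.72, 1.61 and 1.64 in sham rats 1 to 3 and 1.63, 1.44 and 2.01 in CCI rats 1 to 3. In the IP it was 3.87, 3.78 and 3.84 in sham and 3.90, 3.97 and 3.87 in CCI. In the input it was 2.08, 2.08 and 2.04 in sham and 2.22, 2.36 and 1.82 in CCI. Each of these medians lay above 0, and only in the IP did the groups not overlap.

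The difference in ratio was smaller where dim probes were left out, which also left fewer members. In the 2937 members with both kinds above the floor in both channels on all arrays, the median difference in ratio was 0.58, 0.76 and 0.87 in sham and 0.65, 0.69 and 0.97 in CCI. In the 589 members with both kinds well above background in both channels on all arrays, called bright from here on, it was 0.10, 0.24 and 0.27 in sham and 0.11, 0.20 and 0.31 in CCI. In the same 589 members the IP difference stayed at 1.17 ± 0.008 (SD, n = 3) in sham and 1.26 ± 0.014 in CCI, and the input difference at 0.86 ± 0.160 and 0.90 ± 0.108. With bright probes the IP and input differences lay nearer to each other than with all probes, and the ratio difference was smaller. Both filters use the same IP and input signals that are compared. In members, 49.1% of the 45 nt probes but 3.34% of the 60 nt probes were well above background in both channels on all arrays. The few long probes kept were thus chosen for high signal, and the smaller differences cannot be told apart from that choice. The part of the floor values in the larger difference was not tested member by member.

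**Figure D3:**
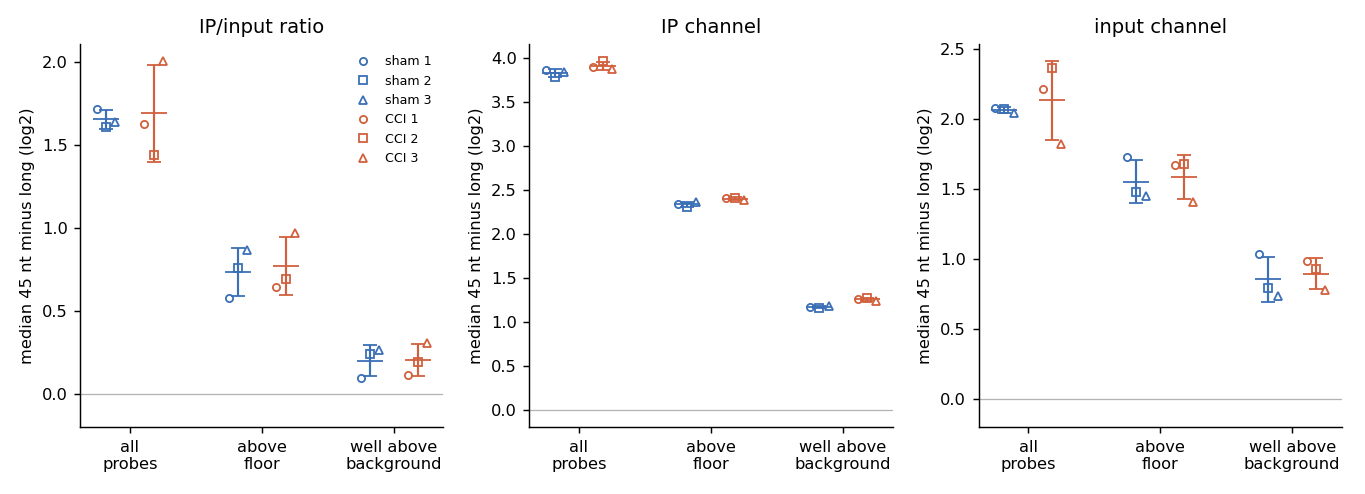
Median over members of 45 nt minus long probes (log2) in the ratio, the IP and the input, for all probes (5830 members), probes above the floor (2937) and probes well above background (589). Symbols are arrays and bars are group means ± SD (n = 3): the difference in ratio shrinks from 1.44 to 2.01 with all probes to 0.10 to 0.31 with bright probes, and the IP difference lies higher in CCI than in sham in each set.

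Region by region, limma called the ratio higher in the 45 nt probes in 4757 of 5830 members and lower in 402, with 671 not called at an adjusted p under 0.05. Over all 10539 regions tested, 80.8% were called higher and 7.43% lower, so the members' share was near the background. In the IP limma called 5562 members higher and 225 lower, against 95.2% and 3.82% of all regions tested. In the input the counts were 5209 and 215, against 88.4% and 3.75%. These tests cover the spread between animals and not the spread between probes, so they show how repeatable a difference was on these probes.

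With probes above the floor only, 1755 of 2937 members were called higher and 632 lower in the ratio (59.2% and 22.2% of all regions tested). In the IP 2552 were called higher and 331 lower (86.0% and 12.2% of regions), and in the input 2362 and 255 (78.6% and 9.56%). With probes well above background only, 280 of 589 were called higher and 210 lower (48.6% and 35.4%). In those 589 members limma called the IP higher in 452 and lower in 123 (72.5% and 24.7% of regions), and the input higher in 402 and lower in 104 (65.1% and 19.6%). The direction of the ratio difference was thus divided among the bright members, where it favoured 45 nt probes in 333 of 589 (56.5%). These members passed a filter on the signals compared, so the division cannot be read onto all members.

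Members varied widely among themselves. With all probes, the difference in ratio (mean of 6 arrays) had a median of 1.69 and ran from -0.15 at the 10th percentile to 3.19 at the 90th, and it was above 0 in 5144 of 5830 members (88.2%). The IP difference was above 0 in 95.8% and the input difference in 93.7%. The same members kept their order from array to array, with a correlation of 0.842 to 0.892 over members for the difference in ratio and 0.989 to 0.995 for the difference in IP (15 pairs of arrays, which share their probes). The 45 nt ratio of a member showed almost no correlation with its long ratio: over 5830 members Pearson's r was 0.0440 and Spearman's rho was 0.0092. The IP and the input of the 45 nt probes followed each other across 7378 members with an r of 0.839.

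Only 13 members had at least 2 probes of each kind well above background in both channels on all arrays, and their values were taken over those probes. The rule set for naming members asked for at least 2 probes of each kind with all probes of both kinds bright and found 0, so this looser rule was chosen after the values were seen. Limma called the ratio higher in the 45 nt probes in 10 of the 13 and lower in 2, and in 9 and 2 of them respectively all 6 arrays had that sign. The 13 spanned a wide range.

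At the low end stood chr14:41321216-41322931, with 5 probes of each kind, 2 of each bright. Its 45 nt minus long difference in ratio was -1.20, -1.32 and -1.11 in sham and -0.93, -0.93 and -1.03 in CCI. The groups did not overlap there, and limma's adjusted p for their difference was 1.00. In that region the 45 nt probes exceeded the long ones by 1.38 ± 0.102 in sham input but by only 0.17 ± 0.009 in sham IP, so the ratio was lower in the 45 nt probes. The next was chr9:74272605-74283503, at -0.24, -0.65 and -0.20 in sham and -0.48, -0.33 and -0.25 in CCI.

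At the high end, chr10:68605817-68613798 gave 3.32, 3.43 and 3.29 in sham and 3.21, 3.37 and 3.52 in CCI. Its 45 nt probes were brighter than its long ones in the IP (2.51 ± 0.030 in sham, 2.53 ± 0.081 in CCI) and dimmer in the input (-0.84 ± 0.101 and -0.84 ± 0.132). In chr15:81176073-81177722 the difference in ratio was 3.09, 2.72 and 2.65 in sham and 2.87, 2.71 and 2.81 in CCI, with the 45 nt probes brighter in both channels. Sham and CCI overlapped in each of these last 2 regions.

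Of the 13, 3 lay next to each other on chromosome 10 and did not share a value. The difference in ratio, as the mean over both groups ± SE from limma, was 0.96 ± 0.086 in chr10:68568675-68590872, -0.03 ± 0.113 in chr10:68592138-68603423 and 3.36 ± 0.081 in chr10:68605817-68613798. The adjusted p in limma was 6.2e-06, 0.82 and 6.6e-09 in that order.

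Probes of the same kind differed in ratio between members and other regions by far less than 45 nt and long probes differed within members. The 45 nt probes of members exceeded those of regions with more than 2/3 of 45 nt probes by 0.010 ± 0.019 in sham and -0.005 ± 0.018 in CCI in the median ratio, less than the spread between arrays. Against regions with fewer than 1/3 they read higher by 0.092 ± 0.091 in sham and 0.097 ± 0.028 in CCI, about the spread in sham and beyond it in CCI. In the single channels the 45 nt probes of members were dimmer than those of regions with more than 2/3, with differences of -0.165 ± 0.005 in sham IP, -0.165 ± 0.002 in CCI IP, -0.17 ± 0.021 in sham input and -0.14 ± 0.024 in CCI input. Against regions with fewer than 1/3 they were brighter in the IP, by 0.247 ± 0.005 in sham and 0.262 ± 0.004 in CCI, and in the input by 0.097 ± 0.107 and 0.101 ± 0.047. Members thus lay between the other classes of region in the IP of their 45 nt probes. Long probes of members exceeded those of regions with fewer than 1/3 by 0.15 ± 0.267 in sham ratio and 0.06 ± 0.166 in CCI ratio, within the spread. With lengths pooled they were brighter in both channels, by 0.66 ± 0.021 in sham IP, 0.68 ± 0.011 in CCI IP, 0.34 ± 0.127 in sham input and 0.45 ± 0.025 in CCI input. Members held 5576 probes of 55 to 59 nt and 6474 of 60 nt, against 5358 and 11389 in those regions. At 60 nt alone the IP of members was brighter by 0.108 ± 0.048 in sham and 0.087 ± 0.041 in CCI. Their input was brighter by 0.31 ± 0.259 and 0.33 ± 0.107, and their ratio differed by -0.09 ± 0.139 and -0.10 ± 0.170. These 60 nt differences in part compare floor values. In the IP the floor covered 47.6% to 50.6% of the 60 nt probes in members. On sham 3 and CCI 1 the median 60 nt IP of regions with fewer than 1/3 was the floor value itself, -4.25 on both. At 55 to 59 nt the IP of members was -2.10 ± 0.036 in sham and -2.14 ± 0.022 in CCI, against -2.06 ± 0.033 and -2.09 ± 0.022. The median difference in ratio between 45 nt and long probes was 1.57 ± 0.245 in sham in regions with fewer than 1/3, 1.66 ± 0.056 in members and 1.70 ± 0.063 in regions with more than 2/3.

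The mean ratio of a member rose with its share of 45 nt probes. The median region ratio was -0.27 ± 0.008 in sham and -0.30 ± 0.039 in CCI in the 1753 members with 1/3 to under 4/9 of 45 nt probes. It was -0.10 ± 0.025 and -0.13 ± 0.013 in the 3074 members from 4/9 to 5/9, and 0.01 ± 0.031 and -0.01 ± 0.019 in the 2551 members above that. The ratio of the 45 nt probes alone was 0.37 in sham in each of these 3 groups of members, and 0.35, 0.36 and 0.36 in CCI. The region ratio thus rose with the share of 45 nt probes with no rise in the 45 nt probes themselves. Whether the mix of probes accounts for the rise was not tested. At the limits of the choice, 454 members just inside the lower limit had a difference between kinds of 1.68, against 1.58 in the 392 regions just outside it, and 690 members just inside the upper limit had 1.72, against 1.68 in the 680 just outside it (means of 6 arrays).

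Within members, the 45 nt probes were dimmer close to a long probe. Those under 200 bp from the nearest long probe had a median IP of 1.04 ± 0.016 in sham and 1.05 ± 0.011 in CCI. The IP was 1.22 ± 0.010 and 1.24 ± 0.012 at 200 to 400 bp, 1.37 ± 0.019 and 1.39 ± 0.011 at 400 to 600 bp, and 1.48 ± 0.019 and 1.51 ± 0.010 at 600 to 1000 bp. The input went the same way, from 0.71 ± 0.027 in sham and 0.71 ± 0.076 in CCI under 200 bp to 1.12 ± 0.073 and 1.08 ± 0.133 at 600 to 1000 bp. Beyond 1000 bp the IP was 1.44 ± 0.013 and 1.47 ± 0.010. The ratio did not follow, with 0.41 ± 0.036 in sham and 0.39 ± 0.070 in CCI under 200 bp and 0.42 ± 0.040 and 0.44 ± 0.102 beyond 1000 bp. The share of these probes well above background in both channels rose alongside, from 43.5% under 200 bp to 51.7% at 600 to 1000 bp, and its part in the result was not tested.

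**Figure D4:**
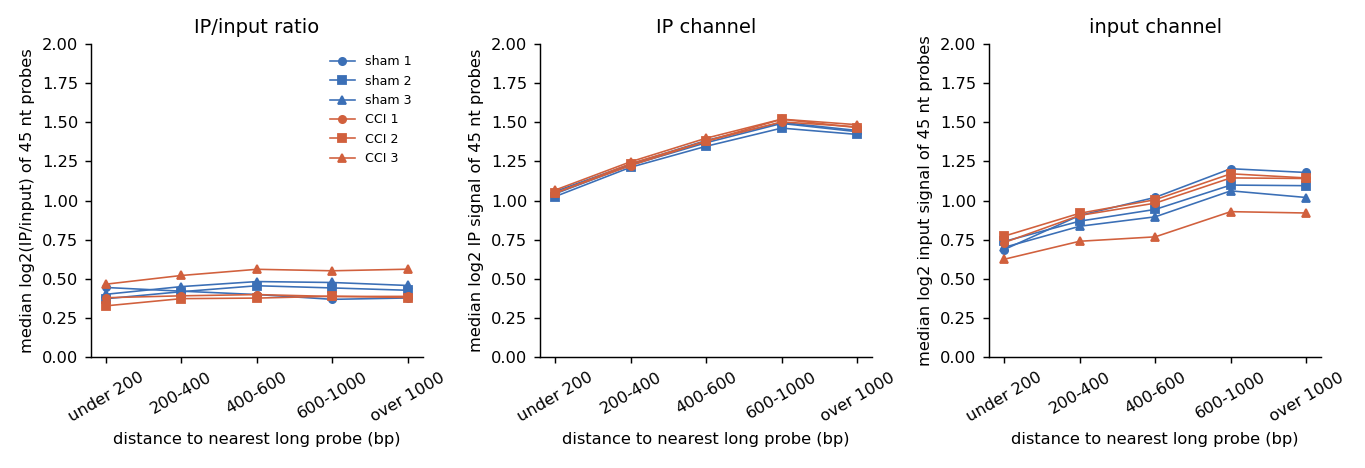
Median log2 ratio, IP and input of the 45 nt probes in members, by distance to the nearest long probe of the same member (bp), 1 line per array. IP and input rise with distance up to 600 to 1000 bp, and the ratio stays between 0.33 and 0.56.

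Chromosomes differed in how many regions qualified, from 40.4% on chromosome 3 to 56.6% on chromosome 2. The median difference in ratio between the kinds was smallest on chromosome 12, at 1.24 ± 0.124 in sham and 1.28 ± 0.216 in CCI, and among the largest on chromosome 18, at 1.92 ± 0.059 and 1.91 ± 0.221.

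The central comparison of the study asked whether nerve injury changes promoter methylation in the lumbar cord. In the members, no region ratio differed between CCI and sham past the threshold. Limma called 0 of 7378 members and 0 of all 16023 regions tested (0%) at an adjusted p under 0.05. It gave 196 members (2.66%) an unadjusted p under 0.05, 32 higher and 164 lower in CCI. Over all regions tested these were 422 (2.63%), 82 higher and 340 lower. Sham and CCI values did not overlap in 587 members (7.96%), against 7.20% of all regions tested. The median region ratio was -0.12, -0.09 and -0.07 in sham and -0.12, -0.12 and -0.14 in CCI, and the 2 groups overlapped. The unadjusted 95% interval of a member's difference extended 0.28 to either side at the median.

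Among members higher in CCI, the 5 with the lowest p had an adjusted p of 1.00 in limma. The first was chr18:16240587-16244084, whose 9 probes were all well above background, the only one of the 10 named members of which this held. Its region ratio was -3.33, -3.64 and -3.40 in sham and -3.03, -3.10 and -2.89 in CCI (the 10th percentile of members was -0.75), with a difference of 0.45 ± 0.125 (SE). Its 6 probes of 45 nt differed by 0.42 ± 0.134 and its 1 long probe by 0.86 ± 0.30. The input of those 6 probes was far above that of most members, at 4.83 ± 0.084 (SD) in sham and 4.74 ± 0.145 in CCI. Over members the median 45 nt input was 1.13 ± 0.101 and 1.12 ± 0.090. Their IP was 1.25 ± 0.108 in sham and 1.64 ± 0.187 in CCI in this member. Only 1 other member, chr5:167806755-167807323, had all of its probes bright, and its ratio was -0.04, -0.08 and -0.12 in sham and -0.18, -0.10 and -0.20 in CCI.

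In chr18:5148176-5149066 the ratio was -1.64, -1.45 and -1.65 in sham and -1.14, -1.24 and -1.27 in CCI. In chr7:77426697-77428410 it was -0.71, -0.79 and -0.45 in sham and -0.30, -0.23 and -0.26 in CCI. In chr3:63492904-63494347 it was -0.90, -0.50 and -0.72 in sham and -0.35, -0.29 and -0.30 in CCI. The groups did not overlap in these 3 regions, by the way they were chosen. In chr8:53120085-53121805, which held no long probe, it was -0.74, -0.88 and -0.79 in sham and -0.47, -0.48 and -0.46 in CCI.

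The 5 members with the lowest p among those lower in CCI also had an adjusted p of 1.00 in limma. The difference was largest in chr9:9045332-9046994, where the ratio was 0.96, 1.105 and 1.03 in sham and 0.16, 0.58 and 0.62 in CCI (-0.58 ± 0.139, SE). None of its 9 probes was well above background in both channels. In chr2:27443127-27444788 the ratio was 0.13, 0.21 and 0.11 in sham and -0.30, -0.30 and -0.26 in CCI. In that member the 45 nt probes differed by -0.36 ± 0.161 and the long probe, at the floor in at least 1 channel on at least 1 array, by -0.48 ± 0.365.

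The ratio of chr16:18789985-18791701 was 0.36, 0.24 and 0.39 in sham and -0.06, -0.08 and -0.23 in CCI, and over its probes above the floor alone the difference was 0.036. In chr2:228751271-228752792 it was 0.92, 1.00 and 0.88 in sham and 0.51, 0.50 and 0.51 in CCI, again with no probe well above background in both channels. In chr8:20024811-20026461 it was 1.60, 1.88 and 1.72 in sham and 1.38, 1.16 and 1.23 in CCI, and with its 1 probe well above background in both channels alone the difference turned to 0.20. In 8 of the 10 members fewer than 50% of the probes were well above background in both channels. Over such probes alone, 8 of the 10 had a value, in 5 of the 8 the difference fell below 2/3 of its size or turned, and it turned in the 3 of them that were lower in CCI. With each array also set to 0 at the median of those probes it fell below 2/3 or turned in 7 of the 8, and turned in 1. In the 6 of them with a long probe, 45 nt and long probes differed in the same direction. With normexp background correction the 10 differences kept their direction and shrank to between 0.0833 and 0.357 of these values. In the IP of the 45 nt probes, CCI minus sham was 0.39 ± 0.092 (SE) in chr18:16240587-16244084 and between -0.056 and 0.060 in the other named members. In the input of the 45 nt probes it ran from -0.42 to -0.09 in the 5 members higher in CCI in ratio. It ran from 0.11 to 0.61 in the 5 members lower in CCI.

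**Figure D5:**
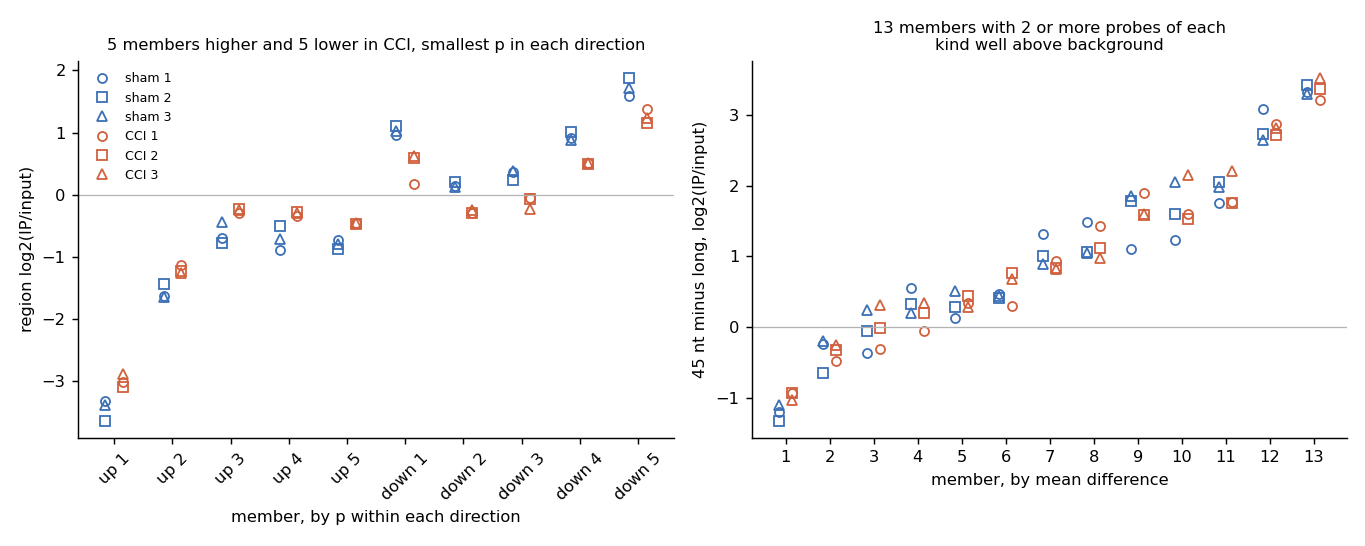
Left, region log2(IP/input) on each array of the 5 members higher and the 5 lower in CCI with the lowest p, in the order of the text. Right, 45 nt minus long difference in ratio of the 13 members with at least 2 bright probes of each kind, from chr14:41321216-41322931 to chr10:68605817-68613798. On the right the members spread from -1.32 to 3.52, far more than the arrays of any 1 member.

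Taken by kind of probe, the ratios gave no call either. For the 45 nt probes limma called 0 of 7378 members (0% of 15041 regions tested), with 218 at an unadjusted p under 0.05 (2.95%, against 3.54% of regions). Without overlap were 7.33%, against 7.61% of regions. For the long probes limma called 0 of 5830 (0% of 11594), with 174 at an unadjusted p under 0.05 (2.98%, against 2.24% of regions). Without overlap were 6.96%, against 5.67%.

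The difference between the kinds was compared between CCI and sham in the same way, as a test of whether the injury shifted one kind against the other. Limma called 0 of 5830 members in the ratio (0% of 10539 regions tested). At an unadjusted p under 0.05 were 136 (2.33%, against 2.24% of regions), 68 in each direction, and 6.66% were without overlap, against 6.15%. In the input limma called 0 (0%), with 118 at an unadjusted p under 0.05 (2.02%, against 1.98%). A member's 95% interval for the ratio extended 0.84 to either side at the median. The median difference in ratio over members was 1.66 ± 0.056 in sham and 1.69 ± 0.291 in CCI. With 1 array left out, CCI minus sham in this median ran from -0.12 without CCI 3 to 0.16 without CCI 2, so it had no stable direction. On the 4 arrays that share a scan time (sham 1 to 3 and CCI 3), the ratio difference was 0.35 higher in CCI and the input difference 0.24 lower. CCI 3 alone gave both values, and CCI 1 and CCI 2, scanned apart, lay on the other side of the sham mean.

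The 4 members with the lowest p in each direction had an adjusted p of 1.00 in limma. In chr5:151748097-151749699 the 45 nt minus long difference was 0.69, 0.67 and 0.66 in sham and 1.84, 1.80 and 1.93 in CCI. Its 45 nt ratio was 0.68 ± 0.072 in sham and 0.72 ± 0.169 in CCI. Its long ratio was 0.00 ± 0.084 and -1.14 ± 0.108, so the long probes held the difference in ratio. The same was seen in chr9:90524284-90525957, where the long ratio was -0.11 ± 0.365 in sham and -1.53 ± 0.623 in CCI. In chr1:120835827-120837094 the long ratio was -2.69 ± 0.569 and -4.00 ± 0.662.

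In chr16:8109562-8111268 the long ratio went the other way, from -3.37 ± 1.04 in sham to -1.65 ± 0.676 in CCI, while the 45 nt ratio was 1.04 ± 0.188 and 1.04 ± 0.272. In chr7:32706685-32707961 neither kind overlapped between the groups, the 45 nt ratio being 0.61 ± 0.234 in sham and 0.01 ± 0.228 in CCI, and the long ratio -0.96 ± 0.098 and -0.22 ± 0.214. The smallest region was chr19:10523146-10523561, with 1 probe of each kind and a difference of 3.24, 3.54 and 4.19 in sham and 2.39, 1.94 and 2.11 in CCI. Neither its 45 nt nor its long probe was above the floor in both channels on all arrays. In chr4:30068158-30069866 and chr11:73438835-73440594 the difference had opposite signs in the 2 groups.

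The long probes differed between the groups in ratio by more than the 45 nt probes in 7 of these 8 members. In the IP, CCI minus sham in the 45 nt minus long difference lay between -0.12 and 0.26 in the 8. In the input it ran from -1.44 to -0.90 in the 4 members with the ratio difference higher in CCI. It ran from 1.21 to 1.59 in the 4 with the ratio difference lower in CCI. No long probe of the 8 was well above background in both channels on all arrays, and in 7 members each long probe was at the floor in at least 1 channel on at least 1 array. With normexp the 8 differences in ratio shrank to between 0.0889 and 0.258 of their size, and the part of dim long probes in them was not tested further.

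The IP channel was the most repeatable of the 3, and there the difference between the kinds lay higher in CCI. Over 5830 members its median was 3.83 ± 0.043 in sham and 3.91 ± 0.048 in CCI, higher by 0.081, and the 2 groups did not overlap. With the 589 bright members it was higher by 0.087, again without overlap. The same held outside the members: with bright probes, it was 0.77 in sham and 0.84 in CCI in regions with fewer than 1/3 of 45 nt probes and 1.37 and 1.51 in regions with more than 2/3. It was 0.014 with normexp background correction and -0.007 after loess within arrays, so its direction depends on the processing. Among the 4 arrays of 1 scan time it was 0.043, with CCI 3 as the only CCI array (3.87, beside 3.87 in sham 1). CCI 1 and CCI 2 were scanned apart from all sham arrays, so for them scan and injury cannot be told apart.

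Member by member the IP difference gave no call. Limma called 0 of 5830 (0% of 10539 regions tested), with a lowest adjusted p of 0.157, and gave 643 an unadjusted p under 0.05, 559 of them higher in CCI. Sham and CCI did not overlap in 17.9% of members, against 17.0% of regions tested. With bright probes limma called 0 of 589 members (0.0871% of 1148 regions tested), with 142 at an unadjusted p under 0.05 (24.1%, against 21.4% of regions). Without overlap were 30.6%, against 28.4%. Above the floor it called 0 of 2937 (0% of 5416 regions tested), with 516 at an unadjusted p under 0.05 (17.6%, against 16.9%). Without overlap were 25.7%, against 24.6%. In the ratio limma called 0 members in either set of probes (0% of regions). At an unadjusted p under 0.05 were 15 with bright probes (2.55%, against 2.79% of regions) and 95 above the floor (3.23%, against 3.49%). Ratios did not overlap between groups in 7.64% of members with bright probes, against 9.06% of regions, and in 8.21% above the floor, against 8.57%. The input gave 0 calls as well (0%), with 12 and 92 members at an unadjusted p under 0.05 (2.04% and 3.13%, against 2.26% and 3.18% of regions). Its groups did not overlap in 9.17% of members with bright probes, against 8.28% of regions, and in 7.87% above the floor, against 7.92%.

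For the 45 nt IP alone, a fit added after seeing the data, limma called 1 of 7378 members (0.0199% of 15041 regions tested). It gave 1370 members (18.6%) an unadjusted p under 0.05, 1250 of them higher in CCI. Over all regions tested these were 2755 (18.3%), 2405 of them higher. The groups did not overlap in 25.9% of members, against 25.7% of regions. The member called, chr2:204493080-204494126, had a 45 nt IP of -3.26, -3.15 and -3.21 in sham and -2.56, -2.58 and -2.67 in CCI, a difference of 0.61 ± 0.041 (SE) with an adjusted p of 0.00786 in limma. Of the 12 spots of its 2 probes of 45 nt, 1 was well above background in the IP, so nearly all of these values were not well above background. The count of members called ran from 0 with normexp, with loess or with a replicate block to 45 with array weights and 214, of which 204 were higher in CCI, with 45 nt probes well above background only. With each array set to 0 at the median of those probes, that last count was 43. The count was 27 without CCI 3 and 0 without sham 1, without sham 3 or without CCI 1. These counts are of members only. The share of all regions called was not counted under these settings, so they describe no trait particular to members. In the member called, the 45 nt ratio differed by 0.35 ± 0.197 (adjusted p of 1.00 in limma). For the 45 nt input, the long IP and the long input, limma called 0 members, and 0% of regions tested in each. At an unadjusted p under 0.05 were 135, 500 and 139 members (1.83%, 8.58% and 2.38%, against 2.39%, 7.32% and 1.87% of regions). Their groups did not overlap in 498 of 7378, 759 of 5830 and 430 of 5830 members, against 7.54%, 12.3% and 6.12% of regions.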

How the data were processed

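The authors deposited 1 scanner file per array, made per the file headers with Agilent Feature Extraction 11.0.1.1 on a design of build rn4. The deposited columns hold intensity per channel, already background-subtracted and dye-normalized by that software, and a log10 ratio of red over green. Of 179525 spots, 6856 controls were left out, as were 656 probes with an outlier flag on any array. The log2 ratio and the log2 signal of each channel were set to 0 at each array's median, with no loess or quantile step, and probes were averaged per region. Region values were tested with limma 3.58.1 (lmFit and eBayes, R 4.3.3, data.table at 1.17.8), two-sided, over all regions with the value, p-values being adjusted by Benjamini and Hochberg's method and called under 0.05. Plots used Python 3.11.15, pandas 2.3.3 and matplotlib 3.10.9. The scripts were tested on simulated data.

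Regions were named by a rule: the 5 members per direction with the lowest p in the region ratio and the 4 per direction in the 45 nt minus long ratio, among those whose groups do not overlap, then members with at least 2 probes of each kind, all of them bright, and members with all probes bright. The former rule found 0 members and was loosened to 2 bright probes of each kind after the values were seen. The fits of each kind of probe in each channel, and the values above the floor, were added after seeing the data, as were length-adjusted values. The members and lists were chosen with earlier results of these data known. Same-numbered sham and CCI animals correlated at 0.0766 to 0.188 in their deviations from the group means and others at -0.260 to 0.135. Not every same-numbered pair exceeded 0.1, so the numbers were not taken to pair the animals. Alternatives covered background correction, normalization, dim and outlier probes, region and member definitions, a replicate block, the scan, array weights and leaving out each array. No gene names were assigned.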

Additional observations from a re-analysis of the deposited data

Results flagged for a closer look

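In 2 of the 8 members named for the 45 nt minus long difference in ratio, that difference had 1 sign on all sham arrays and the other on all CCI arrays. In chr4:30068158-30069866 it was -1.33, -0.87 and -0.88 in sham and 0.01, 0.01 and 0.07 in CCI, a difference between groups of 1.06 ± 0.328 (SE). For its 45 nt probes the sham ratio was 0.37 ± 0.153 (SD, n = 3) and the CCI ratio 0.70 ± 0.074, and for its long probes they were 1.40 ± 0.197 and 0.67 ± 0.105. In chr11:73438835-73440594 the difference was 0.26, 0.67 and 0.29 in sham and -0.94, -0.98 and -0.73 in CCI, a difference between groups of -1.29 ± 0.329 (SE). Its 45 nt ratio was 0.51 ± 0.123 in sham and 0.28 ± 0.205 in CCI, and its long ratio 0.11 ± 0.111 and 1.16 ± 0.336. By channel, CCI minus sham in the 45 nt minus long difference of chr4:30068158-30069866 was 0.16 ± 0.080 (SE) in the IP and -0.90 ± 0.341 in the input. In chr11:73438835-73440594 it was 0.07 ± 0.080 in the IP and 1.36 ± 0.334 in the input. Limma's test of the difference between groups gave an adjusted p of 1.00 for both, and both were chosen for their low unadjusted p. No long probe of either member was above the floor in both channels on all arrays.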

How the results depend on the processing

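The region, 45 nt, long and 45 nt minus long ratios and the 45 nt minus long input gave 0 calls between CCI and sham under each alternative run. The count for the 45 nt IP, 1 as reported, was 0 with normexp, with loess, with the replicate block and with the replicate block after a length trend was removed. It was 43 with probes above background in both channels, 2 with outliers left out per array, 15 with the median of probes, 13 with at least 3 of each kind, 44 with the scan as a block and 15 on the 4 arrays of 1 scan (in both, CCI 3 is the only CCI array set against sham and is assumed to vary as they do), 14 with trend and robust, 45 with array weights, 8 with probes above background in the IP, 7 above the floor, and 0 to 27 with 1 array left out. For the 45 nt minus long IP, 0 as reported, it was 9 with normexp, 1 with quantile normalization, 1 with outliers per array, 20 with the scan as a block and 1 on 1 scan (again CCI 3 alone), 7 with array weights and 23 with probes above background in the IP. Members with the 45 nt probes called higher numbered 452, 1631, 2527, 2552 and 1756 in the IP with bright probes, at least 3 of each kind, IP above background, above the floor and length-adjusted values, and 402, 1539, 2280, 2362 and 1619 in the input. In the ratio they numbered 280, 1480, 1126, 1755 and 1784, and 2670 with loess. Several of these settings test fewer members. For the 45 nt IP and the 45 nt minus long IP between CCI and sham, the share of all regions called was not counted under these settings. For 45 nt against long it was counted only with bright and above-floor probes. Those called lower numbered 3780 in the IP, 2490 in the input and 2127 in the ratio with length-adjusted values, more than those called higher, and in the ratio 852 with IP above background, 676 with loess and 632 above the floor. With 1 array left out the higher calls ran from 5557 to 5564, 5114 to 5228 and 4664 to 4733.

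The median 45 nt minus long difference in IP was 1.39 with normexp, 3.28 with loess, 1.21 with bright probes, 4.06 with the median of probes, 4.50 with 60 nt probes only, 1.76 with IP above background, 2.37 above the floor and -0.76 after length adjustment. In the input it was 0.90, 2.68 and 0.88 with the first 3 of these settings, 2.36 with 60 nt only, 1.53, 1.57 and -0.25 with the last 3. In the ratio it was 0.46, 0.49 and 0.20 with those first 3, 1.21 with the deposited log ratio, 2.02 with 60 nt only, 0.13, 0.75 and -0.10 with the last 3. Length adjustment removes by construction the median difference between lengths. Between CCI and sham, this median moved to 0.014 (normexp) and -0.0067 (loess) in the IP, and on 1 scan, with CCI 3 alone, to -0.24 in the input and 0.35 in the ratio. With 1 array left out it ran from 0.054 to 0.100 in the IP, but changed sign in the input (-0.046 without CCI 2 to 0.23 without CCI 3) and in the ratio (0.16 and -0.12). The 45 nt ratio of members minus that of regions with more than 2/3 became 0.023 with IP above background. The long ratio of members minus that of regions with fewer than 1/3, lengths pooled, became -0.13 with loess. A share of 0.4 to 0.6 left 4865 members. Where dim probes were left out, each array was set to 0 at the median of the probes kept. With the median over all probes instead, added after seeing the data, the 45 nt IP count was 214 with bright probes and 30 above the floor. The region ratio difference reversed to 0.090 in chr8:20024811-20026461 with bright probes and to 0.00062 in chr16:18789985-18791701 above the floor. With the median over all probes it reversed with bright probes to 0.20 in chr8:20024811-20026461, 0.029 in chr16:18789985-18791701 and 0.0079 in chr2:27443127-27444788, and to 0.036 in chr16:18789985-18791701 above the floor. Why these values and counts changed between settings was not tested. Dim long probes limit the ratio, since only 31.2% of all long probes in members were above the floor in both channels on all arrays.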
